A study of Populus deltoides with 12 samples.

Results

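Basic helix-loop-helix (bHLH) proteins are transcription factors that bind DNA as dimers. In plants, some bHLH proteins join an R2R3-MYB factor and a WD40-repeat protein in the MBW complex, which controls genes of anthocyanin and other flavonoid synthesis. Others act in growth, light and hormone responses, iron uptake, and the formation of stomata and hairs, so that membership in the family alone does not assign a gene to pigment synthesis.

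The expression of 3 bHLH genes of *Populus deltoides*, Podel.03G099000.v2.1, Podel.15G110700.v2.1, and Podel.14G157400.v2.1 (written without the version below), was examined among the 46170 genes measured. They belong to the 11 bHLH genes in the study's table of correlations between bHLH genes and anthocyanins, which holds correlations of either sign, and were selected on their pattern in the same 12 libraries, as a gene that falls, a gene that rises, and a gene that changes little in purple leaves. Their levels and color differences are therefore given as a description without a test. The sources used here annotate them as bHLH genes without further names.

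The libraries were made from purple leaves of ZSY (F_P), green leaves of ZSY (F_G), purple leaves of QHP (P), and green leaves of L2025 (G), with 3 replicates per group. All plants were labelled as wild type, and no treatment was given to any group. The study took fully expanded leaves from seedlings of the same age. It gives a leaf position for these samples of QHP and L2025 but not for ZSY. F_P vs. F_G compares leaf colors within 1 cultivar, whereas in P vs. G color and cultivar cannot be told apart. Whether F_P and F_G leaves were matched for position is not stated. The values are FPKM (fragments scaled to exon length and library size), and each library held 14543579 to 16628923 fragments on annotated genes. All 23 genes of the light-harvesting antenna, which mark green leaf tissue, reached 1 FPKM in every library. Their summed level was 7392 to 7604 FPKM in F_P, against 9340 to 10910 in F_G, and 6131 to 6557 FPKM in P, against 20767 to 23791 in G. It was thus lower in both purple groups. The study had listed these genes as changed in P vs. G, so that their lower level is not an independent result. Its part in the results was not tested. In whole leaves, fewer cells of a type and less RNA per cell cannot be told apart.

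In the deposited annotation, whose build is not named in it, Podel.03G099000 lies on chromosome 3 from 11827507 to 11830101 on the minus strand, with 3 exons, an exon length of 1416 bases, and a coding length of 948 bases. Podel.15G110700 lies on chromosome 15 from 12564092 to 12566834 on the minus strand, with 2 transcripts, 8 exons, an exon length of 1849 bases, and a coding length of 1098 bases. Podel.14G157400 lies on chromosome 14 from 11545194 to 11548410 on the plus strand, with 8 exons, an exon length of 2507 bases, and a coding length of 1707 bases. The number of annotated genes overlapping each of them is 0. Whether reads were shared with near-identical copies elsewhere was not examined.

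Podel.03G099000 was not detected in purple leaves of ZSY and was most abundant in green leaves of L2025. Its level was 0, 0, and 0 FPKM in F_P, against 11.1, 15.04, and 10.1 FPKM in F_G. These values correspond to 0 fragments in each F_P library and to 241, 353, and 219 fragments in the F_G libraries. A count of 0 allows up to 3 fragments, or 0.127 to 0.133 FPKM per F_P library, by counting error alone. This is a 95% limit on the upper side only. With 3 fragments taken per library, the mean in F_P was 92.5-fold lower than the 12.1 ± 2.62 FPKM of F_G (SD, n = 3). This fold is a lower bound for the count of 0 only, since the spread of F_G is not in it. In the other cultivars the gene was detected in every library, at 1.21, 1.69, and 1.67 FPKM in P, against 53.4, 53.4, and 63.9 FPKM in G. The means of 1.52 ± 0.272 FPKM in P and 56.9 ± 6.04 FPKM in G (SD, n = 3 each) correspond to a 37.4-fold lower level in P. The highest purple library stayed below the lowest green library in both pairs. In G the gene exceeded 93.1% of the genes detected in that group, in F_G 70.2%, and in P 36.1%.

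Podel.15G110700 had its high values in purple leaves. It reached 27.0, 28.6, and 28.2 FPKM in F_P, against 6.88, 6.46, and 7.44 FPKM in F_G. The mean was 27.9 ± 0.859 FPKM in F_P and 6.93 ± 0.491 FPKM in F_G (SD, n = 3 each), a 4.03-fold higher level in F_P. In P vs. G the distance was wider, with 36.3, 37.9, and 34.6 FPKM in P, against 2.05, 2.38, and 0.949 FPKM in G. The mean of 36.3 ± 1.63 FPKM in P was 20.2-fold higher than the 1.79 ± 0.748 FPKM of G (SD, n = 3 each). The G values rest on 57, 62, and 26 fragments, against 1177, 1258, and 1109 fragments in P, so that G is the least precise group of this gene, with replicate 3 lowest. The libraries of the colors did not overlap in either pair.

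Podel.14G157400 was lower in both purple groups by a smaller margin. Its level was 2.67, 3.30, and 2.56 FPKM in F_P, against 8.59, 8.35, and 5.93 FPKM in F_G. The mean was 2.85 ± 0.401 FPKM in F_P and 7.62 ± 1.47 FPKM in F_G (SD, n = 3 each), a 2.68-fold lower level in F_P. In the other pair it was 4.53, 3.97, and 5.25 FPKM in P, against 9.88, 8.91, and 12.6 FPKM in G. The mean of 4.58 ± 0.638 FPKM in P was 2.28-fold lower than the 10.5 ± 1.91 FPKM of G (SD, n = 3 each). Every purple library lay below every green library of its pair. The description of this gene as one that changes little thus holds only relative to the other 2 genes.

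**Figure D1:**
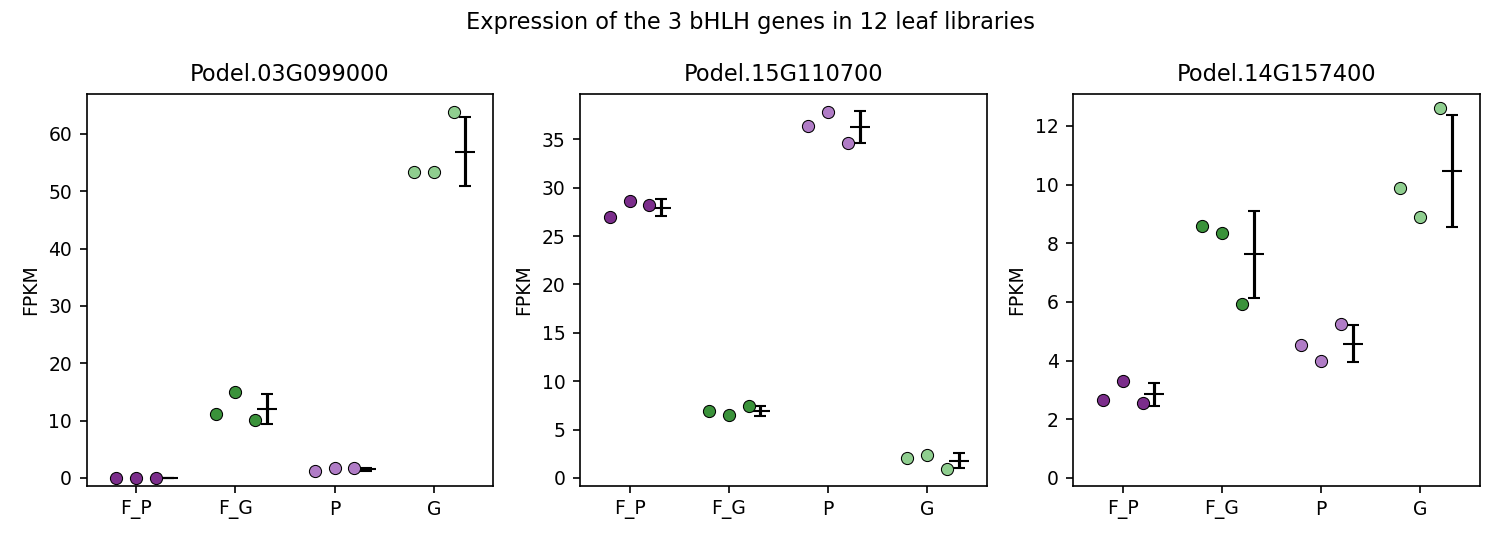
FPKM of the 3 bHLH genes in each of the 12 libraries (points, 3 per group), with the group mean and SD beside them (horizontal line and bar). The vertical axes differ between panels. Podel.03G099000 is at 0 in all F_P libraries, Podel.15G110700 is highest in P and F_P, and Podel.14G157400 is lower in F_P than in F_G and lower in P than in G.

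On log2(FPKM + 1), where changes of low genes come out too small, the difference of Podel.03G099000 was -3.69 (SE 0.168) in F_P vs. F_G and -4.52 (SE 0.122) in P vs. G. That of Podel.15G110700 was 1.87 (SE 0.0814) and 3.78 (SE 0.199) in the same comparisons. Podel.14G157400 differed by -1.15 (SE 0.164) and -1.03 (SE 0.153). With the values rescaled to equal fragment totals, its P vs. G difference was -0.87, and without G replicate 3 or P replicate 2 it was -0.90 or -0.95, so that it lies near a difference of 1. All 3 genes separated the colors without overlap in both pairs, as did 63.4% of all genes in F_P vs. F_G and 69.5% of those in P vs. G. Nothing about the 3 genes is read from this count, since they were selected on these comparisons.

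Podel.03G099000 and Podel.14G157400 shared the order G, F_G, P, and F_P from high to low, an order that 13.8% of 28339 expressed genes had. Podel.15G110700 had the order P, F_P, F_G, and G, which 6.65% of these genes had. For each of the 3 genes, neighbouring groups in the order did not overlap in the deposited values. The share of all genes with such separation was not counted. The narrowest gap was that of Podel.14G157400 between the highest F_G library at 8.59 FPKM and the lowest G library at 8.91 FPKM. These rest on 330 and 315 fragments, with counting limits of 10.5% to 11.7% on either side, a wider span than the gap. Rescaling to equal fragment totals multiplies these values by 1.03 and 0.927, which reverses their order.

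ZSY was compared with the other cultivars as the mean of F_P and F_G minus the mean of P and G in limma over all 12 libraries. The table from which the genes come rests on correlations across samples of all 4 groups, so that this comparison is not independent of the selection either and is given without a p. Podel.03G099000 was lower in ZSY, with a log2 fold change of -1.74 (SE 0.103). Within purple leaves it was 11.7-fold lower in F_P than in P, with 3 fragments taken for each count of 0. The P libraries hold 30, 43, and 41 fragments, with counting limits 27.6% to 32.5% below, so that this fold is no firm lower bound. Within green leaves the gene was 4.71-fold lower in F_G than in G. The ZSY libraries thus had less of this transcript in either leaf color. As no leaf position is given for ZSY, cultivar and leaf position cannot be told apart in this comparison.

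For Podel.15G110700 the ZSY log2 fold change was 0.59 (SE 0.114), a mean that joins opposite differences. F_P was below P by 1.30-fold, a log2 difference of -0.36 (SE 0.0442), whereas F_G was above G by 3.87-fold, a log2 difference of 1.54 (SE 0.249). The SE of differences within a leaf color come from the libraries compared alone. The other SE are those of limma, which also draw on the spread of other genes, so that the kinds are not comparable. The levels of purple and green leaves therefore lay closer together in ZSY than in the other cultivars. This contrast of the color differences was not tested, since the gene was selected on them. Podel.14G157400 had a ZSY log2 fold change of -0.47 (SE 0.115). It was 1.61-fold lower in F_P than in P and 1.37-fold lower in F_G than in G.

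**Figure D2:**
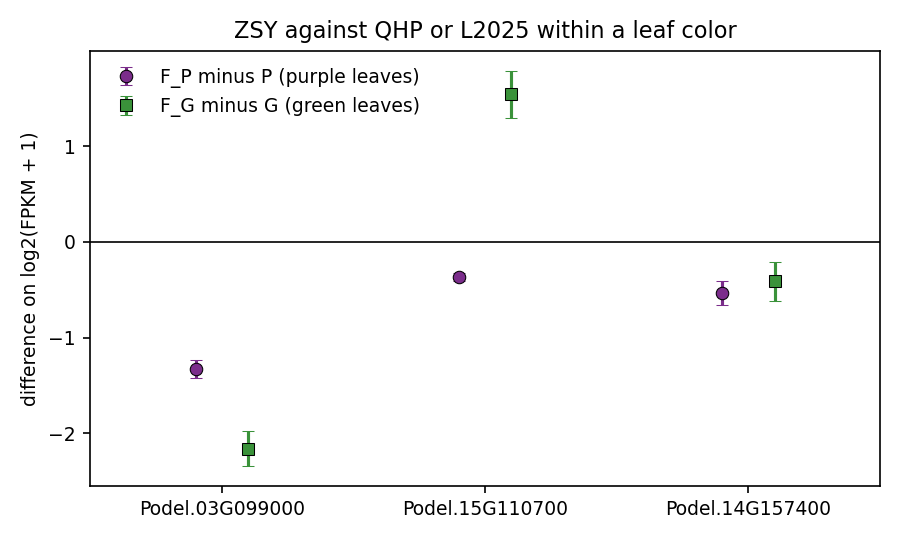
Difference on the log2(FPKM + 1) scale between ZSY and the other cultivar of the same leaf color for the 3 bHLH genes (points with SE from the compared libraries alone, without limma, 3 libraries per group). Both differences are below 0 for Podel.03G099000 and Podel.14G157400, while Podel.15G110700 has -0.36 in purple and 1.54 in green leaves.

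The other 8 genes of the bHLH list all entered the limma fits. Calls required both an adjusted p (Benjamini-Hochberg) no higher than 0.05 and a log2 fold change of 1 or more in either direction. The study chose this list on the same samples, so their direction is not independent evidence. In F_P vs. F_G, 1 gene was called higher and 5 were called lower, with a median log2 fold change of -2.47, against 0.04 over all 25713 genes tested. Of all genes, 5.68% were called higher and 12.5% lower. However, 5 of the 8 genes, and 4 of the 5 called lower, were below 1 FPKM in every F_P library. They passed the filter of 1 FPKM in 3 libraries only through F_G, so that their being lower was a condition of the test, and the count is not support for the list. Podel.04G160100, also called lower, reached 1 FPKM in only 1 F_P library. Podel.01G333900, the gene called higher, reached it in only 1 F_G library. Each of these also needed the group where it is higher. When the filter was recomputed without any one F_G library, only 1 gene was called lower, whereas without a filter 5 were.

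Podel.04G160100 was at 0.781 ± 0.343 FPKM in F_P, against 20.4 ± 1.01 FPKM in F_G, a 26.1-fold lower mean and a log2 fold change of -3.61 (SE 0.162). Podel.07G028600 had the largest fold of the means among the 8, 65.2-fold lower in F_P, but a log2 fold change of -2.70, since the added 1 FPKM compresses its low values. The log2 fold change was -3.15 for Podel.09G122300, -2.63 for Podel.05G135800, and -2.31 for Podel.T132400. Podel.01G333900 was higher in F_P, at 5.16 ± 0.652 FPKM, against 0.768 ± 0.227 FPKM in F_G (log2 fold change 1.80, SE 0.159). Podel.01G109500 and Podel.02G199200 had log2 fold changes of 0.61 and -0.98 and stayed under the minimum.

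In P vs. G, 2 of these 8 genes were called higher and 6 lower, with a median log2 fold change of -2.25, against -0.02 over all 26577 genes tested. Of all genes, 9.85% were called higher and 16.2% lower. Here 1 of the 8, Podel.07G028600, was below 1 FPKM in every P library and entered the fit only through G. Podel.05G135800 and Podel.T132400, also called lower, each had a P library below 1 FPKM, at 0.844 and 0.792 FPKM. They too could not have passed the filter without G, so this count is not support for the list either. Podel.07G028600 was at 0.524 ± 0.183 FPKM in P, against 19.9 ± 1.79 FPKM in G, a 37.9-fold lower mean. Podel.01G109500 was at 14.9 ± 1.33 FPKM in P, against 3.30 ± 0.232 FPKM in G (log2 fold change 1.89, SE 0.110).

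The place of the 3 genes within the list depended on the scale. On log2(FPKM + 1), Podel.03G099000 had the lowest and Podel.15G110700 the highest difference in both pairs. By the fold of the means, however, Podel.01G333900 was 6.72-fold higher in F_P, against 4.03-fold for Podel.15G110700, and Podel.07G028600 was 37.9-fold lower in P, against 37.4-fold for Podel.03G099000. Among the genes lower in purple leaves, Podel.14G157400 had the smallest fold of the means in both pairs, although Podel.02G199200 had the smaller log2 difference in F_P vs. F_G. Of the 11 genes, 8 had the order G, F_G, P, and F_P of their means, although F_G and G, and P and F_P, overlapped for Podel.T132400.

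In ZSY against the other cultivars, 5 of the other 8 genes were called lower, with a median log2 fold change of -1.03, against -0.03 over all genes. Of all genes tested, 5.11% were called lower and 4.62% higher in ZSY, and the list is not independent of this comparison. Among these 5 was Podel.01G333900, which was higher in both purple groups and had a ZSY log2 fold change of -1.08. The gene with the one positive value, Podel.01G109500, had 0.73 and stayed under the minimum.

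**Figure D3:**
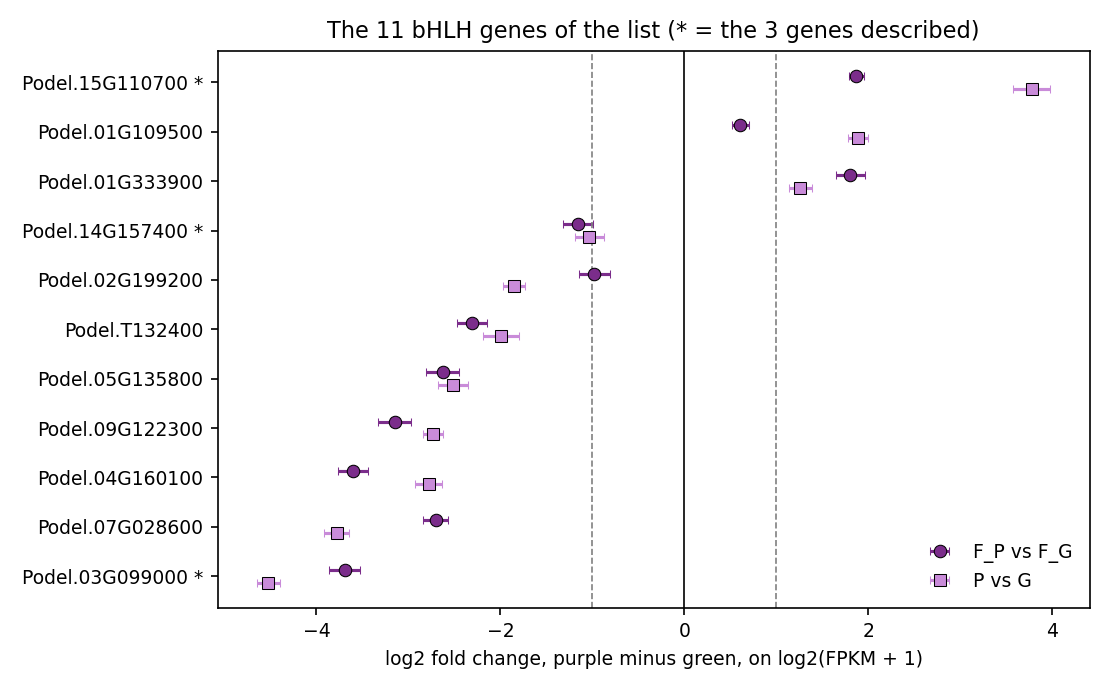
Log2 fold change, purple minus green, of the 11 bHLH genes in F_P vs. F_G (circles) and P vs. G (squares), with SE, on the log2(FPKM + 1) scale. The genes are ordered by P vs. G, dashed lines mark the minimum of 1 in either direction, and asterisks mark the 3 genes described, of which Podel.03G099000 has the lowest and Podel.15G110700 the highest values on this scale, though not by the fold of the means.

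The genes most like each of the 3 were taken by Pearson's r of log2(FPKM + 1) over the 12 libraries, which share the 4 groups, so that r mainly reflects differences between groups. The MYB, bHLH, and structural genes of the study provided 55 other genes for each. For Podel.03G099000 the closest were the bHLH gene Podel.07G028600 (r = 0.989), PdeF3'5'H1 (r = 0.987), annotated as flavonoid 3',5'-hydroxylase, which adds hydroxyl groups to the B-ring of flavonoids, and the bHLH gene Podel.09G122300 (r = 0.981). PdeF3'5'H1 averaged 0.0224 FPKM in F_P, against 2.49 in F_G, and 0.249 FPKM in P, against 7.43 in G. After the group means were removed, r was 0.02 for Podel.07G028600, 0.75 for PdeF3'5'H1, and -0.07 for Podel.09G122300. Since Podel.03G099000 is at 0 in every F_P library, its r of this kind rest on the other groups only. The most opposite gene was PdeUFGT5 (r = -0.991), of the family of flavonoid glucosyltransferases that attach the sugar to anthocyanidins. It averaged 187 FPKM in F_P, against 75.6 in F_G, and 131 FPKM in P, against 44.5 in G. With the group means removed, its r was -0.09.

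For Podel.15G110700 the closest were PdeUFGT9 (r = 0.949), PdeUFGT5 (r = 0.947), and the bHLH gene Podel.01G109500 (r = 0.941), and the most opposite was PdeF3'5'H1 (r = -0.977). By ranks over the 12 libraries (Spearman's rho) the values were smaller in size, at 0.776, 0.790, 0.825, and -0.790. After the group means were removed, r was 0.66, 0.81, 0.16, and -0.45 in the same order. These values rest mainly on G, where the SD of Podel.15G110700 was 41.8% of its mean, against 3.07% to 7.09% in the other groups. Replicate 3 of G, the lowest, holds only 26 fragments of this gene. PdeUFGT9 averaged 160 FPKM in F_P, against 84.2 in F_G, and 124 FPKM in P, against 38.6 in G. In contrast to Podel.15G110700, both glucosyltransferases were higher on average in F_P than in P. Podel.01G109500 had means of 15.9 FPKM in F_P and 14.9 FPKM in P, with overlapping libraries. For Podel.14G157400 the closest were the MYB gene Podel.02G205100 (r = 0.971), PdeANS6 (r = 0.963), annotated as anthocyanidin synthase, the enzyme that forms the colored anthocyanidins, and Podel.03G099000 (r = 0.960). PdeANS6 averaged 0.0749 FPKM in F_P, against 4.28 in F_G, and 0.671 FPKM in P, against 7.52 in G. The most opposite was PdeMYB1 (r = -0.967), an R2R3-MYB gene with means of 37.5 FPKM in F_P, against 11.2 in F_G, and 17.6 FPKM in P, against 5.33 in G. Without the group means, r with Podel.14G157400 was 0.58 for Podel.02G205100, 0.54 for PdeANS6, 0.54 for Podel.03G099000, and -0.72 for PdeMYB1. Between the 3 genes, r was -0.952 for Podel.03G099000 with Podel.15G110700 and -0.894 for Podel.15G110700 with Podel.14G157400.

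Strong correlations of either sign were also found in the set of all expressed genes. An r of at least 0.95 was found with Podel.03G099000 for 4.23% of them, with Podel.15G110700 for 1.29%, and with Podel.14G157400 for 1.25%. An r of -0.95 or lower was found for 2.11%, 2.12%, and 0.561% of them in the same order of the 3 genes. The closest named genes of Podel.15G110700 stayed just under 0.95. The nearest of all were Podel.11G032000 (r = 0.998), Podel.01G018400 (r = 0.997), and Podel.11G113500 (r = 0.990), again in this order.

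**Figure D4:**
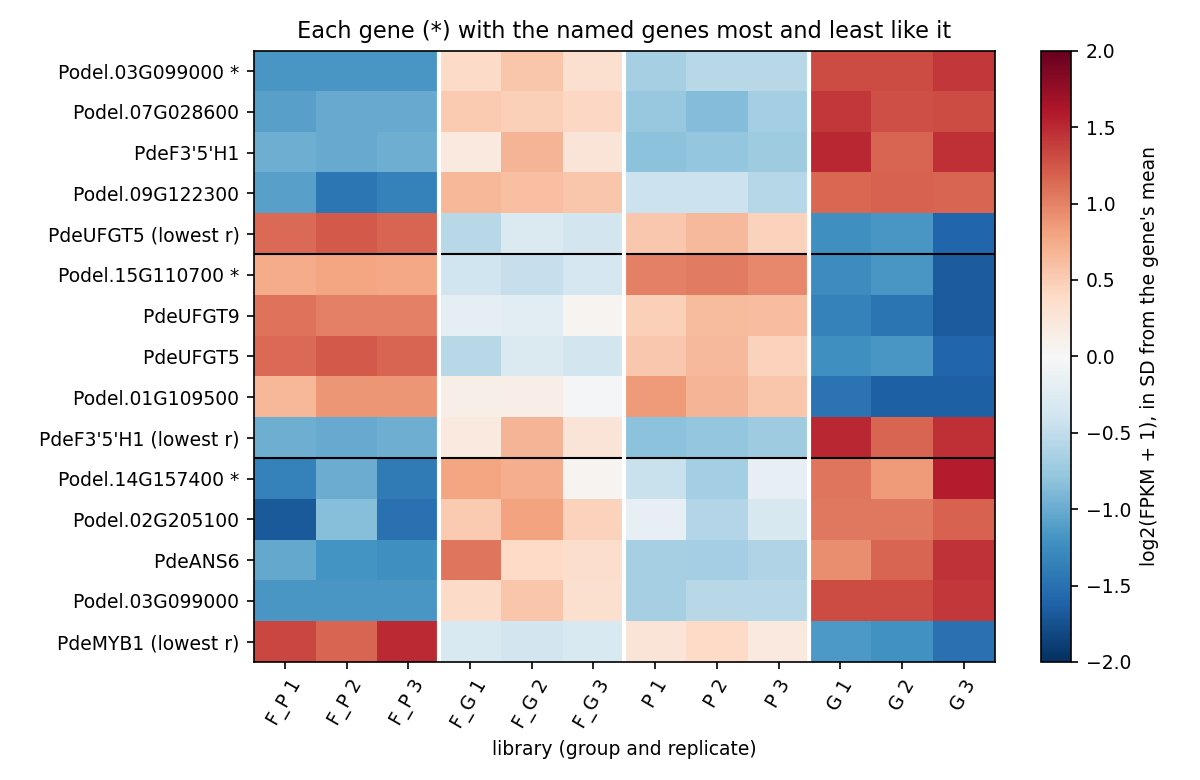
Level of each of the 3 bHLH genes (asterisk) and of the named genes with the 3 highest and the lowest r, by library. Colors give log2(FPKM + 1) as the distance from the gene's mean over 12 libraries in SD, from blue (low) to red (high), and the rows marked as lowest r show the opposite pattern.

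The genes beside each of the 3 were examined because position had not entered the selection. Of the 60 genes formed by the 10 annotated genes on each side, 43 could be tested in F_P vs. F_G, of which 3 were called higher and 4 lower, with a median log2 fold change of 0.15. These shares are near those of all genes, 5.68% higher and 12.5% lower. Of the same 60 genes, 48 could be tested in P vs. G, of which 4 were called higher and 6 lower, with a median of -0.15, also near the 9.85% and 16.2% of all genes. Around Podel.03G099000, 2 of 15 tested neighbours were called lower in F_P vs. F_G, and 1 was called higher and 2 lower in P vs. G. The 2 lower genes were the same in both pairs and were the next 2 genes downstream, whose starts lie 8.47 and 14.05 kb from its own. They had log2 fold changes of -1.54 and -1.18 within ZSY (F_P vs. F_G), and of -1.33 and -1.38 for P vs. G, smaller than those of Podel.03G099000. These neighbours were singled out after their values were seen.

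Around Podel.15G110700, 2 of 14 tested neighbours were called higher and 1 lower in F_P vs. F_G, and 2 of 17 higher and 3 lower in P vs. G. Different genes passed in each pair, but their directions did not differ. Those called in F_P vs. F_G had log2 fold changes of 0.93, 0.66, and -0.89 in P vs. G, under the minimum. Those called in P vs. G had 0.46, 0.12, and -0.40 in F_P vs. F_G where they could be tested. Around Podel.14G157400, 1 of 14 was called higher and 1 lower in F_P vs. F_G, and 1 of 16 higher and 1 lower in P vs. G. On chromosome 14, genes of chalcone synthase, the first enzyme of flavonoid synthesis, lie 0.181 Mb (PdeCHS6), 0.399 Mb (PdeCHS2), and 0.407 Mb (PdeCHS1) from Podel.14G157400, with 16, 42, and 44 genes between. PdeUFGT1, of the glucosyltransferase family, lies between them at 0.341 Mb. The chalcone synthase genes were higher in purple leaves, with log2 fold changes of 1.64, 2.57, and 1.70 in F_P vs. F_G and of 1.08, 2.51, and 1.86 in P vs. G, all called higher. PdeUFGT1 had a log2 fold change of 0.26 in F_P vs. F_G, which was not called, and of -1.08 in P vs. G, where it was called lower. The study had listed the chalcone synthase genes and PdeUFGT1 as differential structural genes in the same libraries. Their calls are therefore not independent of that selection. Whether their nearness to Podel.14G157400 bears on their levels was not tested.

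**Figure D5:**
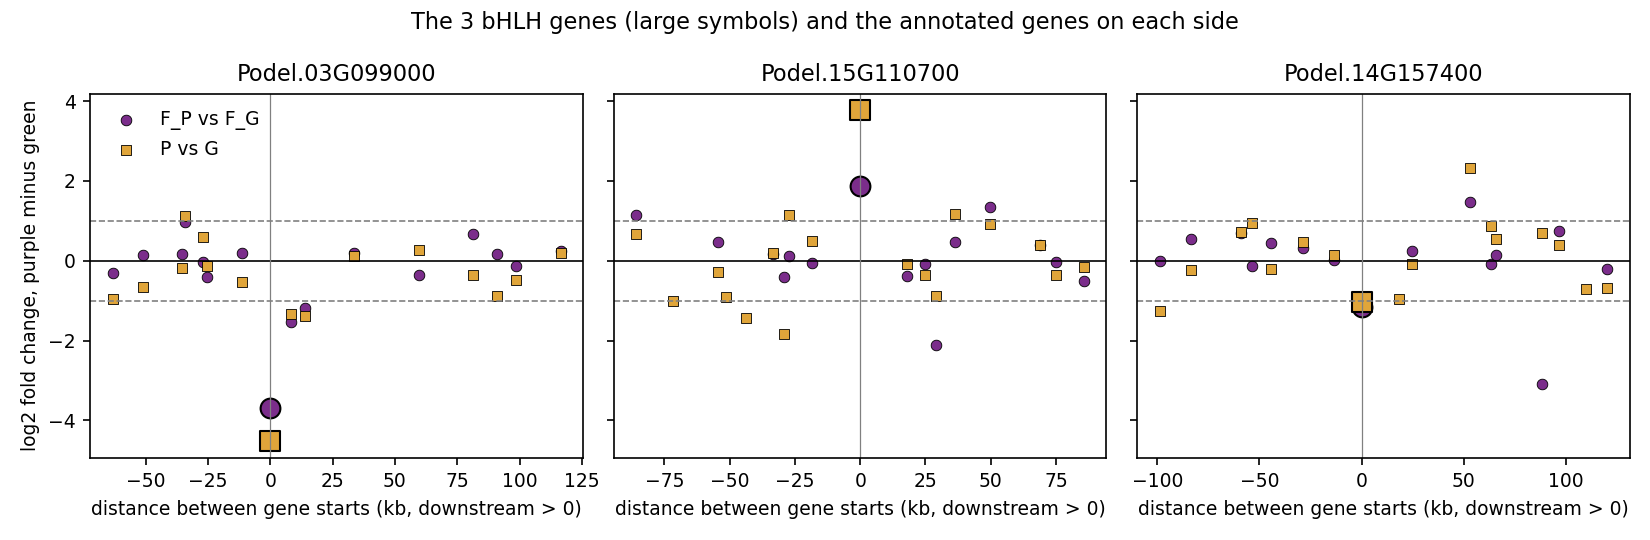
Log2 fold change, purple minus green, of the 3 bHLH genes (large symbols at 0) and of the tested genes among the 10 on each side, by the distance between gene starts in kb (positive is downstream of the bHLH gene). Circles are F_P vs. F_G and squares P vs. G, and dashed lines mark the minimum of 1 in either direction; beside Podel.03G099000 only the next 2 genes downstream fall below -1 in both pairs.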

How the data were processed

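RNA of whole leaves was sequenced as paired-end libraries. The authors used HISAT2 for mapping and StringTie for transcript assembly and deposited FPKM for every gene, 1 file per library. For both tools the version, and for the counts the program, is not given in the sources used here. Also deposited were the positions of exons in the annotation, from which exon lengths were computed. FPKM times exon length, divided by the value of 1 fragment in each library, gave whole fragments (within 0.02) for 100% of the values checked. Of the genes, 1317 are outside the annotation.

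Purple and green leaves were compared within each pair on log2(FPKM + 1) with the trend option of limma 3.58.1, run in R 4.3.3. A gene entered a fit where 3 or more of its libraries reached 1 FPKM. Adjusted p-values cover all genes tested. The procedure was tested on simulated data in which only genes well above the filter's minimum were changed, and by large folds. That test says little about calls of genes below 1 FPKM in a group. The study names independent biological replicates, and p-values measure the spread between these libraries. Counting limits cover counting error only. The members, lists, and tests were chosen with earlier results of these data known. Named genes are the members, the other bHLH genes of the list, and per member the 3 named genes with the highest and the 1 with the lowest r, and the 1 with the highest r among all genes. PdeCHS1, PdeCHS2, PdeCHS6, and PdeUFGT1, from the study's list of structural genes, were added for their position. The ZSY comparison had been planned as a test of the members and is given without one, since the list was correlated over all groups. Python 3.11.15 with numpy 2.4.6 and pandas 2.3.3 served for tables. Alternatives were other scalings, filters, and pseudocounts, a replicate block, limma-voom on fragments, all libraries in one fit, fewer neighbours, and leaving out each library.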

Additional observations from a re-analysis of the deposited data

How the results depend on the processing

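The color differences depended on how low values were treated. With a pseudocount of 0.1, Podel.03G099000 differed by -6.91 (F_P vs. F_G) and by -5.14 for P vs. G, Podel.15G110700 by 2.00 and 4.36, and Podel.14G157400 by -1.38 in F_P vs. F_G. With limma-voom on fragments the values were -9.17 and -5.03, 1.95 and 4.62, and -1.48 in the same order. The fitted value of Podel.03G099000 against F_P at 0 depends on the added count and is no bound. Its ZSY log2 fold change was -3.12 with a pseudocount of 0.1 and -4.18 with limma-voom. For neighbours in P vs. G, 7 were called higher with equal fragment totals and with limma-voom, and 11 lower with a pseudocount of 0.1 and with limma-voom. Equal totals moved the median of all genes in P vs. G to 0.15, against -0.02 as deposited. Over all genes, limma-voom called 4274 higher in P vs. G, against 2618, and in ZSY 2118 higher and 2891 lower, against 1310 and 1448; a pseudocount of 0.1 gave 2174 and 2939.

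Leaving out 1 library at a time moved the count of the other 8 bHLH genes called lower in F_P vs. F_G between 5 and 6. These fits kept the filter of all libraries. They were first run with the filter recomputed on the libraries left, and the filter was fixed after those counts had been seen. With the recomputed filter the same count ranged between 1 and 6, and the genes called lower ranged between 1841 and 3227 for F_P vs. F_G, and the range was 2688 to 4343 for P vs. G. With 2 libraries left in a group, genes expressed in that group alone cannot reach 3 libraries and leave the test, and Podel.03G099000 could then not be fitted without any one F_G library.

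Same-numbered libraries did not deviate together (r between -0.237 and 0.0925), so no pairing by number was seen. These values cannot show whether same-numbered leaves shared a plant or a batch. With the replicate block, 5 of the other 8 bHLH genes were called lower in F_P vs. F_G, as without it, and the block changed no other count of bHLH genes or neighbours. Depth limits Podel.03G099000 in F_P and Podel.15G110700 in G.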
